A study of Homo sapiens with 4 samples.

Results

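The miR-548 family is a set of human miRNAs that carry 1 number and differ by letter. It was followed here through all array entries in which every named miRNA begins with miR-548. This rule by name used no measured value, but the choice was made with earlier results of these data known. The rule gave 31 of the 1308 entries, and 5 of the 31 carry the joint name of several miRNAs that the array reports as a single value. A further entry named both miR-548ai and miR-570-5p and was left out. The arrays measured small RNA of exosomes, which are vesicles shed into the culture medium, here by cells of the hepatocellular carcinoma line Hep3B over 2 days in exosome-free medium. The 2 camptothecin arrays came from cells given 10 µM of this topoisomerase I inhibitor, and the 2 untreated arrays from cells labelled as receiving no treatment, which the headers of the authors' ratio table call DMSO. All 4 share the cell line. No label states that replicate arrays were independent cultures, so p-values measure the spread between these arrays, which may be technical.

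A miRNA is cut from a hairpin RNA, and either strand of the hairpin, the 5p or the 3p arm, can guide repression of messenger RNAs that pair with its seed, bases 2 to 8. The miR-548 hairpins derive from MADE1, a short palindromic relative of a mariner DNA transposon that spread in the primate lineage. A palindromic repeat folds back on itself when transcribed, so copies scattered over the genome could become hairpins, and the 2 arms of such a hairpin resemble each other's reverse complement. The family therefore has many loci, several mature miRNAs that are identical between loci, and A- and U-rich sequences.

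Mature sequences in RefSeq (GRCh38.p14) matched 18 of the 31 entries by exact name. The 5 of these 18 that share the seed AAAGUAA are shown first, because they allow changes to be compared among members with a common seed. Capitals mark bases 2 to 8 and all sequences run 5′ to 3′.
miR-548ab: aAAAGUAAuuguggauuuugcu
miR-548aq-5p: gAAAGUAAuugcuguuuuugcc
miR-548as-5p: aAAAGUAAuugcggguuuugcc
miR-548y: aAAAGUAAucacuguuuuugcc
miR-548w: aAAAGUAAcugcgguuuuugccu
The next set shows the 3p side, with the opposite arm of miR-548aq and a second entry of the same seed, AAAAACU, followed by 2 further 3p entries that passed the test described below.
miR-548aq-3p: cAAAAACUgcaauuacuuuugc
miR-548x-3p: uAAAAACUgcaauuacuuuc
miR-548c-3p: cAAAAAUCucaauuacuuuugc
miR-548ay-3p: cAAAACCGcgauuacucuugca
The last 2 are the dimmest entry, miR-548l, and miR-548al, which lay farthest below entries of like signal.
miR-548l: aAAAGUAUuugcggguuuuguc
miR-548al: aACGGCAAugacuuuuguacca

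Over the 18 matched entries there were 13 different seeds, and AAAGUAA (5 entries) and AAAAACU (2 entries) were those held by more than 1. The common stretch AAGUAAUU was present in 4 of the 18 and its reverse complement AAUUACUU in another 4, against 0.902% of the 1109 entries with a matched sequence for either of these motifs. Besides the miR-548 entries, 2 of those held it, miR-603 and miR-876-3p. Within miR-548aq, the 5p arm and the reverse complement of the 3p arm share the run AAAGUAAUUGC of 11 bases. The arms of any hairpin pair with each other and no other hairpin was set beside it, so this run alone does not show the repeat. Sequences were 20 to 23 bases long, with 25% to 54.5% G or C. A comparison of G and C content with other entries is void, since 58.1% of the family matched, under the 80% set as the minimum.

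The loci are dispersed, and several lie inside genes of other function. On GRCh38.p14, miR-548ab is at chr3:103524085-103524106 on the minus strand, with no other annotated gene across it, and miR-548al is at chr11:74399301-74399322 on the plus strand, likewise outside any gene. miR-548aq-5p (chr3:185767883-185767904) and miR-548aq-3p (chr3:185767847-185767868), both on the minus strand, lie within the span of IGF2BP2, which encodes an RNA-binding protein. miR-548l (chr11:94466545-94466566, minus strand) lies within MRE11, which encodes a nuclease subunit of DNA double-strand break repair, and miR-548c-3p (chr12:64622569-64622590, plus strand) within RASSF3. miR-548as-5p (chr13:92490163-92490184, plus strand) lies within GPC5, a heparan sulfate proteoglycan gene, and miR-548w (chr16:26025246-26025268, plus strand) within HS3ST4, a heparan sulfate sulfotransferase gene. miR-548ay-3p (chr3:32506305-32506326, minus strand) and miR-548y (chr14:47761061-47761082, minus strand) have no other annotated gene across them. miR-548x-3p comes from identical copies at chr13:65966352-65966371 and chr21:18686100-18686119, both on the minus strand, the second within the noncoding gene MIR548XHG. Whether a position is exonic or intronic was not analysed here.

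The whole series set the background for these values. The lowest and highest deposited intensities (arbitrary units) were 109 and 8435 on each camptothecin array and 91.4 and 12998 on each untreated array, with the 75th percentile at 250.2 on all 4. Within each group the 1308 sorted values were equal on both arrays, as quantile normalization of a group's arrays would give, so part of the replicate spread was removed before deposit and p-values are too small to that extent. The number of arrays limits the precision, and no detection flag was available to say how far a dim probe stood above background. Hepatocyte markers were dim as well in exosomes of this carcinoma line. miR-122-5p, the characteristic miRNA of hepatocytes, read 135 and 139 with camptothecin and 106 and 103 without, at the 3.75 percentile of level, and the 3 hepatocyte markers lay between 120 and 146 on average. Of 5 blood cell miRNAs looked for, which can enter with serum, 3 were measured, at mean levels of 158 to 265. As deposited, 1 of these 3 and all 3 hepatocyte markers were called higher (limma), against 35.1% of all entries. Under quantile normalization of all 4 arrays 0 of either list were called higher, against 6.88% of all entries. The part of these markers in the results below was not tested.

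All but 1 of the miR-548 entries were dim to middling. The level of an entry is given as the mean of its log2 intensity over the 4 arrays, turned back to intensity, and levels of different probes are array readings rather than amounts of RNA. The family's median level was 151, against 164 for all entries, which put it at the 40.7 percentile. Of the 31 entries, 21 lay below the median of all entries and 10 at or above it, and 4 equal bins of all entries by level held, from the dimmest up, 6, 15, 9 and 1 of them. On each of the 4 arrays, 20 of the 31 were below that array's median.

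**Figure D1:**
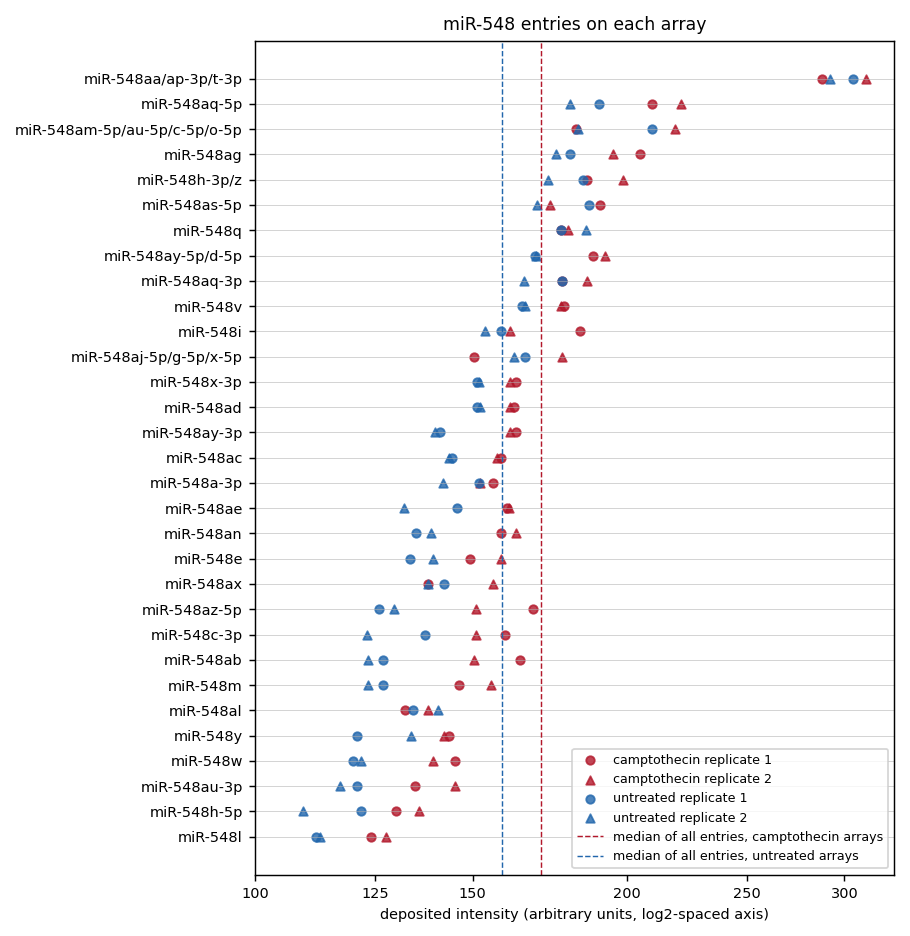
Deposited intensity (arbitrary units, log2-spaced axis) of the 31 miR-548 entries on each of the 4 arrays, 1 point per array, sorted by mean level, with dashed lines at the median of all entries. The joint entry of miR-548aa, miR-548ap-3p and miR-548t-3p stands alone near 299, and the camptothecin points lie right of the untreated points in 23 of the 31 rows.

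The brightest entry was the joint one for miR-548aa, miR-548ap-3p and miR-548t-3p. It read 288 and 312 with camptothecin and 305 and 292 without, at the 81 percentile of level. The groups overlapped, and its log2 fold change of 0.0075 ± 0.060 (SE, n = 2 arrays per group) was near 0.

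miR-548aq-5p came next, with 209 and 221 after camptothecin and 190 and 180 without. Both treated arrays were above both untreated ones. The joint entry of miR-548am-5p, miR-548au-5p, miR-548c-5p and miR-548o-5p followed, with 182 and 219 against 209 and 182. Its replicates differed more within each group than the groups did from each other.

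At the dim end, miR-548l read 124 and 128 with camptothecin and 112 and 113 without, a mean level at the 3.21 percentile of all entries. The lowest value on any array was 109 for camptothecin and 91.4 for untreated cells, so miR-548l stood close to the floor of each group. miR-548h-5p read 130 and 136 against 122 and 109, and miR-548au-3p 135 and 145 against 121 and 117. In all 3 of these dim entries the treated arrays were the higher ones. The same held for 290 of the 321 entries outside the family in the dimmest bin of level. It therefore does not set these 3 apart from other dim entries.

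The comparison of camptothecin with untreated cells addresses how exosomal miRNAs differ after treatment with a drug. Taken as deposited, 15 of the 31 miR-548 entries were called higher after camptothecin and 0 lower, where a call is a limma adjusted p under 0.05 (Benjamini-Hochberg over all 1308 entries). Of all entries, 35.1% were called higher and 11.2% lower, and of the 988 other entries within the family's range of level, 37% were called higher and 3.04% lower. Without adjustment, 18 of the 31 had a p under 0.05. The median log2 fold change was 0.16 over the family, 0.11 over all entries and 0.12 over the 988. Both treated arrays lay above both untreated arrays in 23 of the 31 entries, against a background of 59.4% of all entries and 65.7% of the 988, and in 0 did both lie below, against 19.3% of all entries and 9.92% of the 988. With 2 arrays against 2, exact two-sided permutation cannot reach a p below 0.333, so a single entry cannot be called that way.

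These calls depended on the scaling. With all 4 arrays quantile normalized together, 0 of the 31 entries passed in limma, 4 had an unadjusted p under 0.05, and the smallest adjusted p was 0.0642 (background 6.88% of all entries higher and 6.04% lower). The family's median log2 fold change there was 0.0073, with 17 entries above 0 and 14 below, and that of all entries was -0.0093. With cyclic loess, which removes a dependence of the change on the level, 1 entry passed, miR-548al, and it was lower (-0.20, limma adjusted p = 0.0447; background 9.33% higher and 4.66% lower). After normexp background correction 0 passed, with 8 at an unadjusted p under 0.05 (background 8.1% higher and 6.5% lower). A direction for the family as a whole was therefore not shown independently of the scaling. With 1 array left out, 0 of the 31 passed in limma whichever array it was, with 10 to 14 at an unadjusted p under 0.05. The background then fell too, to 2.22% higher and 3.21% lower without camptothecin replicate 1, 1.15% and 2.22% without camptothecin replicate 2, and 0% and 0.0765% without untreated replicate 1 or, in the same amounts, untreated replicate 2. With all entries and all arrays on the deposited scale, 4 settings gave 14 or 15 calls in the family, against a background called higher of 34.9% with a pseudocount of 32, 35.2% without the intensity trend, 36.4% with robust variance and 33% with the replicate number as a block. With only entries at or above the median level tested, 3 of the 10 that were left in the family were called higher, against 19.1% of the 654 entries higher and 21.7% lower.

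**Figure D2:**
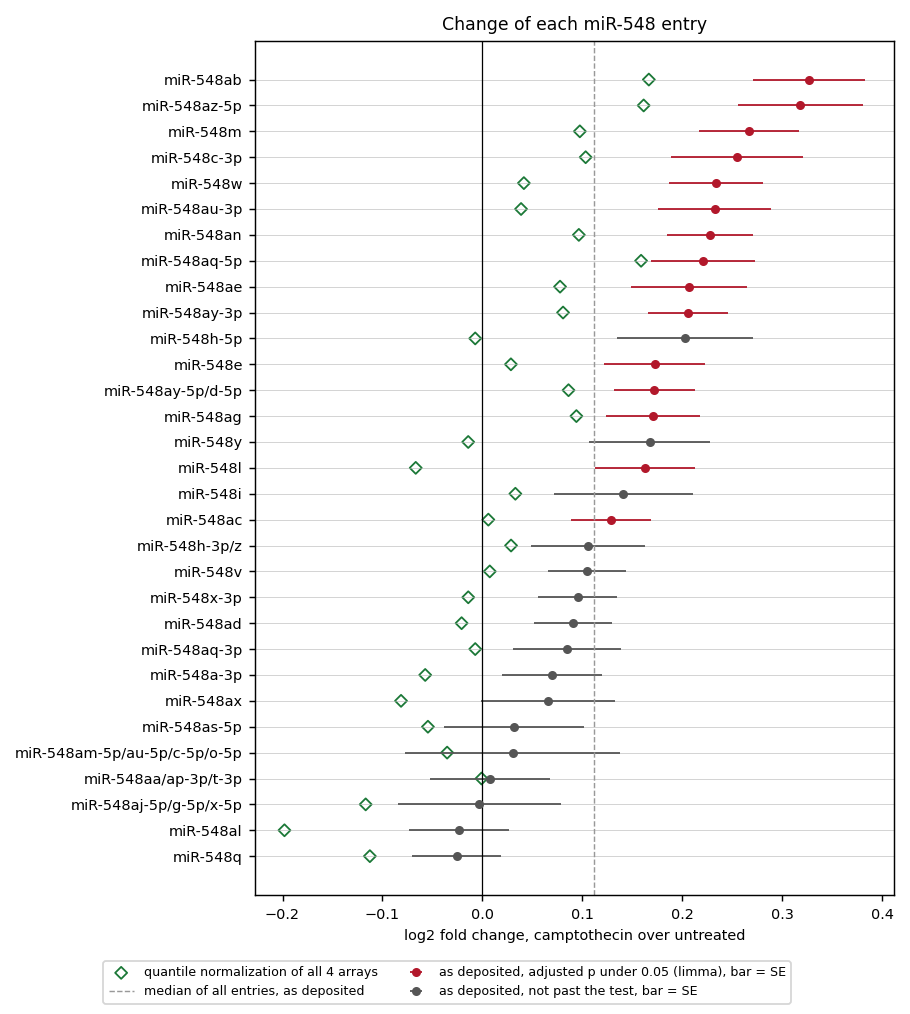
Log2 fold change of each miR-548 entry, camptothecin over untreated, as deposited (filled points, bars are limma standard errors, n = 2 arrays per group) and after quantile normalization of all 4 arrays (open diamonds). The 15 entries past the test as deposited are in red, the dashed line is the median of all entries (0.11), and 14 of the 31 diamonds lie below 0.

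The largest change as deposited was that of miR-548ab. It read 164 and 150 with camptothecin and 127 and 123 without, and the groups were well apart although the treated arrays differed between themselves. It rose 1.25-fold (log2 fold change 0.33 ± 0.056 SE; limma adjusted p = 0.0115). Quantile normalization of all 4 arrays left 0.17 (limma adjusted p = 0.151). miR-548ab was also the entry that still passed with each array centred on its median (0.22, limma adjusted p = 0.0391; background 9.02% higher).

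miR-548az-5p had a change of like size, with 168 and 151 against 126 and 129. It rose 1.25-fold (0.32 ± 0.062 SE; limma adjusted p = 0.0145). As with miR-548ab, camptothecin replicate 1 was the higher of the treated arrays. With each of the 4 arrays left out in turn, the log2 fold change ran from 0.26 to 0.39 for miR-548ab and from 0.24 to 0.39 for miR-548az-5p.

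miR-548m read 146 and 155 against 127 and 123 and rose 1.2-fold (0.27 ± 0.050 SE; limma adjusted p = 0.0133). miR-548c-3p read 159 and 151 against 137 and 123 and rose 1.19-fold (0.25 ± 0.066 SE; limma adjusted p = 0.028). For both, the treated arrays were clear of the untreated ones, and for miR-548c-3p the untreated arrays lay farther apart than the treated ones.

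miR-548w, of the seed AAAGUAA, read 145 and 139 against 120 and 122 (0.23 ± 0.047 SE; limma adjusted p = 0.0158). miR-548au-3p had the values given above and a like change (0.23 ± 0.056 SE; limma adjusted p = 0.024). miR-548an read 158 and 163 against 135 and 139 (0.23 ± 0.043 SE; limma adjusted p = 0.0139). These 3 rose by between 1.17- and 1.18-fold with no overlap between groups.

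miR-548aq-5p rose 1.17-fold (0.22 ± 0.052 SE; limma adjusted p = 0.0227), and it was the brightest of the called entries. miR-548ay-3p read 163 and 161 against 141 and 140, with replicates close together (0.21 ± 0.040 SE; limma adjusted p = 0.0143). miR-548ae read 160 and 160 against 146 and 132, so here the untreated arrays held most of the spread (0.21 ± 0.058 SE; limma adjusted p = 0.0349); without untreated replicate 2 its log2 fold change was 0.14. All 3 changes kept their sign under quantile normalization, at 0.16, 0.081 and 0.078, and none passed there.

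The remaining 5 called entries changed less. miR-548e read 149 and 158 against 133 and 139 (0.17), and miR-548ag read 205 and 195 against 180 and 175 (0.17). The joint entry of miR-548ay-5p and miR-548d-5p read 188 and 192 against 168 and 169 (0.17). In these 3 entries both treated arrays were higher, by more than the replicates differed.

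miR-548l had a log2 fold change of 0.16, and miR-548ac, with 158 and 157 against 144 and 144, one of 0.13. Both were close to the threshold, with limma adjusted p of 0.0431 and 0.0442. miR-548l turned to -0.067 under quantile normalization, and miR-548ac shrank to 0.0059 there and was at -0.0042 with cyclic loess. miR-548ac was also the entry that did not pass without the intensity trend, with robust variance or with the block.

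Among the 16 entries not past the test, 13 had a log2 fold change above 0 and 3 below. miR-548h-5p (0.20, limma adjusted p = 0.056) and miR-548y (0.17, limma adjusted p = 0.0691) were nearest to the threshold, and miR-548h-5p passed with robust variance (limma adjusted p = 0.0385). Both varied with the untreated array left out: without untreated replicate 1 and without untreated replicate 2, their log2 fold changes were 0.28 and 0.13 for miR-548h-5p and 0.094 and 0.24 for miR-548y. miR-548i (0.14), the joint entry of miR-548h-3p and miR-548z (0.11), miR-548v (0.10), miR-548x-3p (0.095), miR-548ad (0.091), miR-548aq-3p (0.085), miR-548a-3p (0.069) and miR-548ax (0.065) followed. Leaving out 1 array moved 4 of these widely with no change of sign, between 0.047 and 0.23 for miR-548i, 0.057 and 0.15 for the miR-548h-3p joint entry, 0.033 and 0.14 for miR-548aq-3p and 0.021 and 0.12 for miR-548a-3p. In this series of 10, 8 had both treated arrays above both untreated arrays, against 59.4% of all entries and 65.7% of the 988. The 10 had the largest positive changes among the entries not past the test, so this count depends on that order. miR-548aq-3p and miR-548ax overlapped between groups.

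The 3 entries below 0 were miR-548q, miR-548al and the joint entry of miR-548aj-5p, miR-548g-5p and miR-548x-5p. miR-548q read 177 and 179 against 177 and 185 (-0.026 ± 0.045 SE), and miR-548al read 132 and 138 against 134 and 141 (-0.023 ± 0.050 SE). The joint entry read 150 and 177 against 165 and 162 (-0.0030 ± 0.082 SE). Groups overlapped in all 3, and each SE was larger than the change. miR-548as-5p (0.032) and the 2 remaining joint entries, already described, also stayed near 0.

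Because changes on these arrays varied with level, each entry was set against the 100 entries outside the family closest to it in level. Among all other entries, 61.7% of the dimmest of the 4 bins and 38.1%, 20.8% and 18.7% of the next bins were called higher, so dim entries outside the family were called higher more often than bright ones. The miR-548 calls in the same bins were 3 of 6, 9 of 15, 3 of 9 and 0 of 1.

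**Figure D3:**
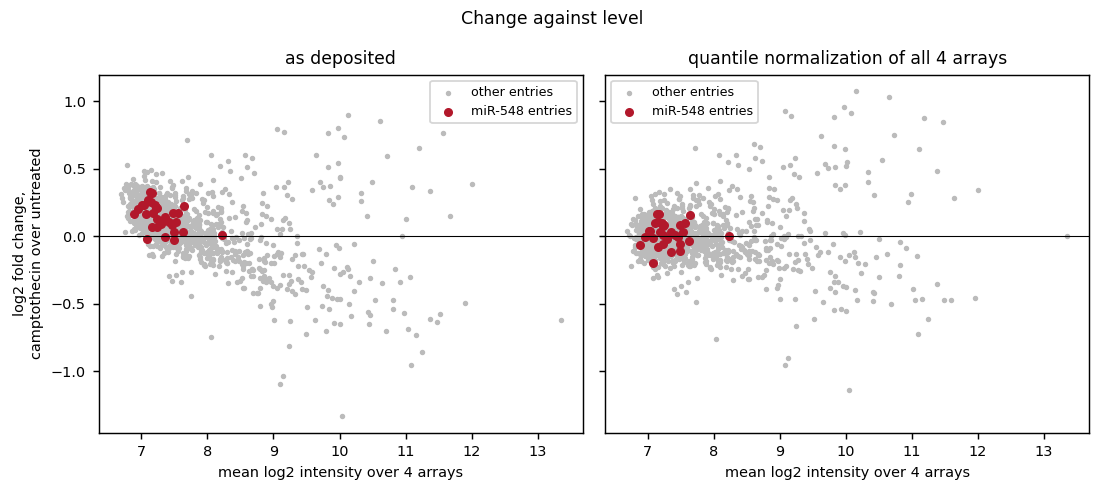
Log2 fold change, camptothecin over untreated, against mean log2 intensity over the 4 arrays for all 1308 entries, as deposited (left) and after quantile normalization of all 4 arrays (right), with the 31 miR-548 entries in red. As deposited the family follows the downward slope of the other entries, and after normalization it is spread around 0, with a median of 0.0073.

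The offset of an entry, its log2 fold change minus the median of those 100, had a median of 0.025 over the family, and 20 of the 31 offsets were above 0 and 11 below. The SD of that median over the 4 pairs of a treated with an untreated array was 0.028, close to the median itself. These pairs reuse the same 4 arrays, so this SD is not the error of the median offset. It cannot decide whether the family as a whole differed from entries of like level. With each array left out in turn, the median offset ran from 0.0024 to 0.055. The median was 0.025 with quantile normalization and 0.024 with cyclic loess.

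Single entries departed further. miR-548ab had an offset of 0.17, above 96 of its 100 neighbours in level, and so did miR-548az-5p, above 96 of its own. miR-548aq-5p had an offset of 0.17 and exceeded 89 of 100. At the other end miR-548al had an offset of -0.19 and exceeded 3 of 100, and the joint entry of miR-548aj-5p, miR-548g-5p and miR-548x-5p (-0.11) exceeded 15. These entries were picked as the highest and lowest offsets of the family, so their extreme ranks follow in part from that choice. The ranks describe the entries and carry no test.

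**Figure D4:**
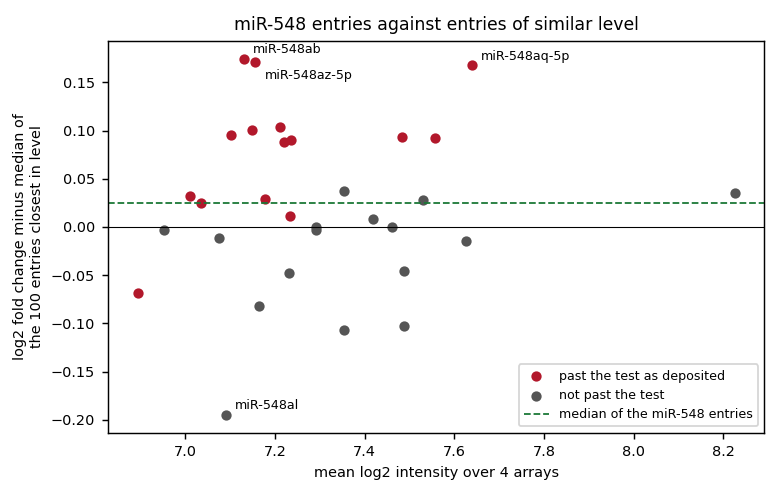
Offset of each of the 31 miR-548 entries, its log2 fold change minus the median of the 100 entries outside the family closest in level, against mean log2 intensity. The dashed line is the family's median offset of 0.025; miR-548ab, miR-548az-5p and miR-548aq-5p lie near 0.17 and miR-548al at -0.19.

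By arm in the entry's name, 7 entries were 5p, 6 were 3p, 16 gave no arm and 2 joint entries mixed a 3p with a miRNA of no stated arm. The 5p entries had a median level of 179 and a median log2 fold change of 0.17, with 3 of 7 called higher. The 3p entries had a median level of 150 and a median log2 fold change of 0.15, with 3 of 6 called. Entries with no stated arm stood at 146 and 0.17, with 9 of 16 called. In percent these are 42.9%, 50% and 56.2%, against 35.1% of all entries and 37% of the 988, and no difference between arms was tested. Against entries of like level, the median offsets were -0.0028, 0.016 and 0.018 in the same order. The SD of 0.028 given above is that of the whole family, and the spread between arrays was not computed by arm. Replicates differed by a median absolute log2 difference of 0.13 with camptothecin and 0.077 without for 5p entries, and of 0.049 and 0.072 for 3p entries.

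Both arms of a hairpin were named for 6 hairpins. As deposited, both arms were called higher in 1 of them, miR-548ay, 1 arm in 3 of them, and neither in 2. Of all entries, 35.1% were called higher. Under quantile normalization of all 4 arrays 0 of these arms passed. The 5p change was above the 3p change in 2 hairpins and below it in 4. However, 4 of the 6 hairpins shared their 5p value with other miRNAs in a joint entry, and miR-548au and miR-548c shared the same one. The 3p value of miR-548h was shared with miR-548z.

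miR-548aq was the hairpin with an entry of its own for each arm. Its 5p arm rose (0.22) while its 3p arm had a log2 fold change of 0.085, did not pass (limma adjusted p = 0.23) and read 177 and 185 against 177 and 165. The log2 difference of 5p over 3p was 0.24 and 0.25 on the camptothecin arrays and 0.097 and 0.13 on the untreated arrays. The groups did not overlap in this difference, for which the exact two-sided permutation test gives its smallest possible p, 0.333.

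Changes among the 5 entries matched to the seed AAAGUAA covered a range, and differences between members were not tested. Entries with no matched sequence may hold this seed too, and their seeds were not read. Of the 5 matched entries, 3 were called higher as deposited, miR-548ab, miR-548w and miR-548aq-5p. The background was 35.1% of all entries and 37% of the 988. Under quantile normalization of all arrays together, 0 of the 31 family entries passed, these 5 included, against 6.88% of all entries called higher. As deposited, log2 fold changes of the 5 ran from 0.032 for miR-548as-5p to 0.33 for miR-548ab. miR-548ab and miR-548as-5p have the same length and are identical at 19 of 22 positions, the differences being U12C, A15G and U22C, counted from 1 at the 5′ end with the base of miR-548ab first. Yet miR-548as-5p read 190 and 173 with camptothecin and 186 and 169 without, with overlapping groups. miR-548aq-3p and miR-548x-3p, of the seed AAAAACU, had log2 fold changes of 0.085 and 0.095 and neither passed. Signal that such similar sequences may share on the array was not tested, since probe sequences were not used here.

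Other repeat-derived miRNAs were read beside the family, from lists chosen with earlier results of these data known, against the same 35.1% of all entries called higher. Of 3 entries related to the same repeat under other names, 1 was called higher as deposited, miR-603 (131 and 146 against 119 and 121; 0.21 ± 0.065 SE; limma adjusted p = 0.0456). miR-570-3p had 0.16 and the joint entry of miR-548ai and miR-570-5p had 0.14, and neither passed. Their median was 0.16, close to that of the family, and -0.040 under quantile normalization, where 0 passed. These 3 entries were dim, at levels of 128 to 135, within the dimmest bin. Entries of that bin outside the family, which include these 3, had a median of 0.21 as deposited, and 61.7% were called higher. The median of the 3 was thus not above that of entries of like level, and a behaviour shared with the family was not shown.

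Of 5 miRNAs from L2 elements, an old and widespread retrotransposon, 1 was called higher, miR-708-5p (0.20), with a median of 0.070. Of 18 entries from other repeats, 3 were called higher, miR-582-3p (0.26), miR-330-5p (0.21) and miR-345-3p (0.15), a share below that of all entries, and the median was 0.12. Under quantile normalization of all 4 arrays these medians were -0.12 and -0.044, 0 entries of either list were called higher, and miR-95, from L2, was called lower (-0.31, limma adjusted p = 0.0305). The Alu-related entries went the other way: 12 of 14 were called lower and 0 higher, against 11.2% of all entries lower, led by miR-1273e (-0.86), with a median of -0.46. They were also brighter, 12 of the 14 lying above the family's range of level, up to miR-1273g-3p at 10471, and in the brightest of the 4 bins 39.6% of the entries outside the family were called lower. Under quantile normalization of all 4 arrays 7 of the 14 were called lower, against 6.04% of all entries. The share among bright entries alone was not computed under that setting. miR-1273g-3p, the highest value on every array, cannot change there by construction.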

How the data were processed

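Small RNA of 4 arrays was analysed, 2 per group; a sample's group and replicate number come from its title. Per the labels' protocols, reverse transcription and amplification preceded Cy5 coupling. The deposited values are intensities on a linear scale; how they were scanned, corrected and normalized is not given in the sources used here. The authors' second table holds log2 ratios of treated over control arrays, per the file headers; they equal differences of the log2 intensities within 5e-10 and served as a check, and that table named the entries. Another 4 columns of values in it were not used.

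Log2 intensities, with no pseudocount or further scaling, were compared over all 1308 entries in R 4.3.3 with limma 3.58.1, by lmFit followed by eBayes with an intensity trend. Tests were two-sided with Benjamini-Hochberg adjustment and a threshold of 0.05. Errors are limma standard errors. The code was tested on simulated data. Sequences are from RefSeq (GRCh38.p14), by exact name. Every member is named; values per array are given for called, brightest, dimmest, most changed, joint and paired-arm entries. Members and lists were chosen with earlier results of these data known. Alternatives were other normalizations (quantile, cyclic loess, median, normexp with an offset of 50), a pseudocount of 32, a filter on dim entries, eBayes without trend or robust, a replicate block and leaving out each array.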

Additional observations from a re-analysis of the deposited data

How the results depend on the processing

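With 2 arrays per group, whose sorted values were equal before deposit, the spread behind each test is small. The 15 calls became 0 with quantile normalization of all 4 arrays, 1 with cyclic loess, 1 with each array centred on its median, 0 after normexp, and 3 of the 10 entries left by a filter at the median level (background 19.1% higher); without 1 array they were 0 in limma each time (10 to 14 at an unadjusted p under 0.05). The pseudocount of 32 gave 15 and no trend gave 14. Robust variance gave 15, of which 14 were among those called as deposited; miR-548ac was lost and miR-548h-5p gained. With the replicate number as a block 14 were called, all among the 15; the numbers share no stated origin and the correlation of same-numbered deviations was -0.072 over 2 pairs, so they are not taken to pair the arrays.

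The median log2 fold change of 0.16 became 0.0073 (quantile), 0.021 (cyclic loess), 0.058 (centring), 0.078 (normexp), 0.13 (pseudocount) and 0.095 (filter), and 0.13 to 0.16 without 1 array. The median offset stayed between 0.015 and 0.042 under these settings and with windows of 50 or 200 entries, and was 0.0024 to 0.055 without 1 array. The median log2 level of 7.23 became 6.50 after normexp.

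Quantile normalization turned the sign of 11 entries: miR-548ax (-0.081), miR-548l (-0.067), miR-548a-3p (-0.057), miR-548as-5p (-0.055), the miR-548am-5p joint entry (-0.035), miR-548ad (-0.021), miR-548x-3p (-0.014), miR-548y (-0.014), miR-548h-5p (-0.0072), miR-548aq-3p (-0.0072) and the miR-548aa joint entry (-0.00096). Cyclic loess turned 11: miR-548ax (-0.089), miR-548l (-0.075), miR-548a-3p (-0.063), miR-548as-5p (-0.049), miR-548ad (-0.028), the miR-548am-5p joint entry (-0.026), miR-548x-3p (-0.023), miR-548h-5p (-0.015), miR-548y (-0.014), miR-548ac (-0.0042) and miR-548aq-3p (-0.00089). Centring turned 9: the miR-548aa (-0.098) and miR-548am-5p (-0.075) joint entries, miR-548as-5p (-0.073), miR-548ax (-0.040), miR-548a-3p (-0.036), miR-548aq-3p (-0.021), miR-548ad (-0.015), miR-548x-3p (-0.010) and miR-548v (-0.00083). Normexp turned miR-548ax (-0.085), miR-548a-3p (-0.051), miR-548as-5p (-0.042) and the miR-548am-5p joint entry (-0.018). Without 1 array, 7 turned sign at least once, with ranges of -0.052 to 0.067 (miR-548aa joint entry), -0.10 to 0.16 (miR-548am-5p joint entry), -0.038 to 0.10 (miR-548as-5p), -0.021 to 0.15 (miR-548ax), -0.060 to 0.0082 (miR-548q), -0.12 to 0.12 (miR-548aj-5p joint entry) and -0.057 to 0.011 (miR-548al). Of the called entries, miR-548l turned under quantile normalization and cyclic loess and miR-548ac under cyclic loess, and neither turned without 1 array. The cause was not tested. The alternatives for G and C content were not run, that comparison being void.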
